A study of Sus scrofa with 6 samples.

Results

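The genes described here are 4 secreted class 3 semaphorins (SEMA3A, SEMA3C, SEMA3D and SEMA3E), the semaphorin receptor PLXNA2 (plexin A2) and the commissural axon receptor ROBO3, in whole pig embryos at embryonic day 21. They are 6 of the 1780 genes in the count table used here, matched by their Ensembl identifiers, and were picked by family and with earlier results of these data known. Any member with under 10 reads in total would have counted as not measured. All 6 were measured, with 3315 to 17080 reads each over 6 libraries, and all 6 were among the 807 genes tested.

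The 3 control embryos were untreated and the 3 parthenotes developed from oocytes activated by electric pulses and carried in surrogate gilts. All 6 were of Landrace x Yorkshire x Duroc (LYD) stock. A parthenote has maternal chromosomes only, while a control has a maternal and a paternal set. The labels do not say how the controls were conceived or whether embryos shared a litter, so an effect of having no paternal genome and any group difference in dam, handling, sex or stage cannot be told apart, and the spread over samples may be partly technical. Only genes of chromosome 9 were analysed here, and the libraries held 1193714 to 1484193 counted reads. A level in CPM is a count per 1000000 of these reads after TMM scaling between libraries. The paternally expressed gene PEG10 was at 20.3 ± 9.11 CPM in parthenotes against 30495 ± 4602 CPM in controls (SD, n = 3 each), in the direction the labels give. The libraries numbered 1 differed most from the others of their group, with a chi-square per degree of freedom of 141 and 143 for control 1 and of 61.0 and 52.8 for parthenote 1, against 6.98 and 21.1 for the remaining pair of each group.

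Class 3 semaphorins are released by cells and steer growing axons, migrating neural crest cells and vessels, mostly by repulsion. Most of them bind a neuropilin, which is held in a complex with a plexin of the A type that passes the signal into the cell and collapses the growth cone; SEMA3E can act through plexin D1 without a neuropilin. ROBO3 belongs to the Roundabout family of receptors and is found mainly on neurons of the hindbrain and spinal cord whose axons cross the midline. Mammalian ROBO3 lets these axons approach and cross the midline, and people who lack its function have uncrossed hindbrain tracts and horizontal gaze palsy with progressive scoliosis.

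In RefSeq's annotation of the Sscrofa11.1 assembly, the 4 semaphorin genes lie along 4.15 Mb of chromosome 9. SEMA3D spans positions 95280637 to 95486109, SEMA3A 95934937 to 96387950, SEMA3E 96682178 to 96941074 and SEMA3C 99114649 to 99432683. PLXNA2 lies apart from them at 134584760 to 134800471, and ROBO3 at 52065043 to 52081764. The count values cover whole genes, and 0 of the 6 spans overlapped another RefSeq gene, which bears on the counts because reads carry no strand in this kind of library. Lengths of the transcripts were not used here, so levels are compared between embryos and not between genes.

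ROBO3 was the member with the largest difference between the groups. It had 466, 472 and 477 CPM in control 1, 2 and 3, from 592, 601 and 632 reads. It had 631, 701 and 638 CPM in parthenote 1, 2 and 3, from 825, 989 and 948 reads. Every parthenote lay above every control, and the gap between the groups was wider than the range within either of them. The group means were 472 ± 5.35 CPM and 657 ± 38.7 CPM (SD, n = 3 each), a 1.39-fold difference with a log2 fold change of 0.48 ± 0.10 (SE) and a 95% interval of 0.26 to 0.70.

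The 3 controls were closer to each other in ROBO3 than counting error alone would give on average. Their coefficient of variation was 1.13%, against 4.05% for random counting at this depth, while that of the parthenotes was 5.89% against 3.30%.

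SEMA3A, a repellent of the class and a guide of sensory and motor axons, had 1244, 1141 and 1218 CPM in control 1, 2 and 3. The parthenotes had 1228, 1356 and 1303 CPM. Parthenote 1 lay within the range of the controls and parthenote 2 and 3 above it, so the groups overlapped. The log2 fold change was 0.11 ± 0.08 (SE), with a 95% interval of -0.07 to 0.29, and it was 0.07 without control 2.

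SEMA3C, which guides cardiac neural crest cells into the outflow tract of the heart, had 730, 749 and 658 CPM in control 1, 2 and 3. It had 721, 856 and 874 CPM in parthenote 1, 2 and 3. As for SEMA3A, parthenote 1 fell among the controls and the remaining parthenotes above them. Its log2 fold change of 0.20 ± 0.11 was the largest of the 4 semaphorins, with a 95% interval of -0.04 to 0.44, and it was 0.13 without parthenote 3.

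SEMA3D, which acts on neural crest, endothelial and sensory axon patterning, had 868, 906 and 932 CPM in control 1, 2 and 3. The values in parthenote 1, 2 and 3 were 886, 1024 and 1042 CPM. Parthenote 1 was again inside the control range and the remaining parthenotes above it. The log2 fold change was 0.13 ± 0.09, with a 95% interval of -0.08 to 0.33. It was 0.07 without parthenote 3 and 0.20 without parthenote 1.

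SEMA3E, a repellent of blood vessels and of some forebrain axons, had 471, 384 and 374 CPM in control 1, 2 and 3, and 352, 488 and 394 CPM in parthenote 1, 2 and 3. The lowest and the highest of the 6 values were both parthenotes. The group means were nearly equal, at 410 ± 53.6 and 411 ± 69.6 CPM (SD, n = 3 each). The log2 fold change of 0.01 ± 0.15 had no stable sign: it was -0.00 with DESeq2's size factors as scaling and in DESeq2, and -0.01 without a filter on low counts. It was -0.04 without control 2, -0.06 without control 3 and -0.13 without parthenote 2.

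PLXNA2, which pairs with neuropilins as a receptor of class 3 semaphorins and also binds class 6 semaphorins, had 1543, 2192 and 2314 CPM in control 1, 2 and 3. It had 1987, 2325 and 2278 CPM in parthenote 1, 2 and 3. Control 1 stood below all the others, and the remaining 5 libraries lay within 1987 to 2325 CPM. The log2 fold change was 0.12 ± 0.15, with a 95% interval of -0.22 to 0.46, and without control 1 it was -0.04.

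**Figure D1:**
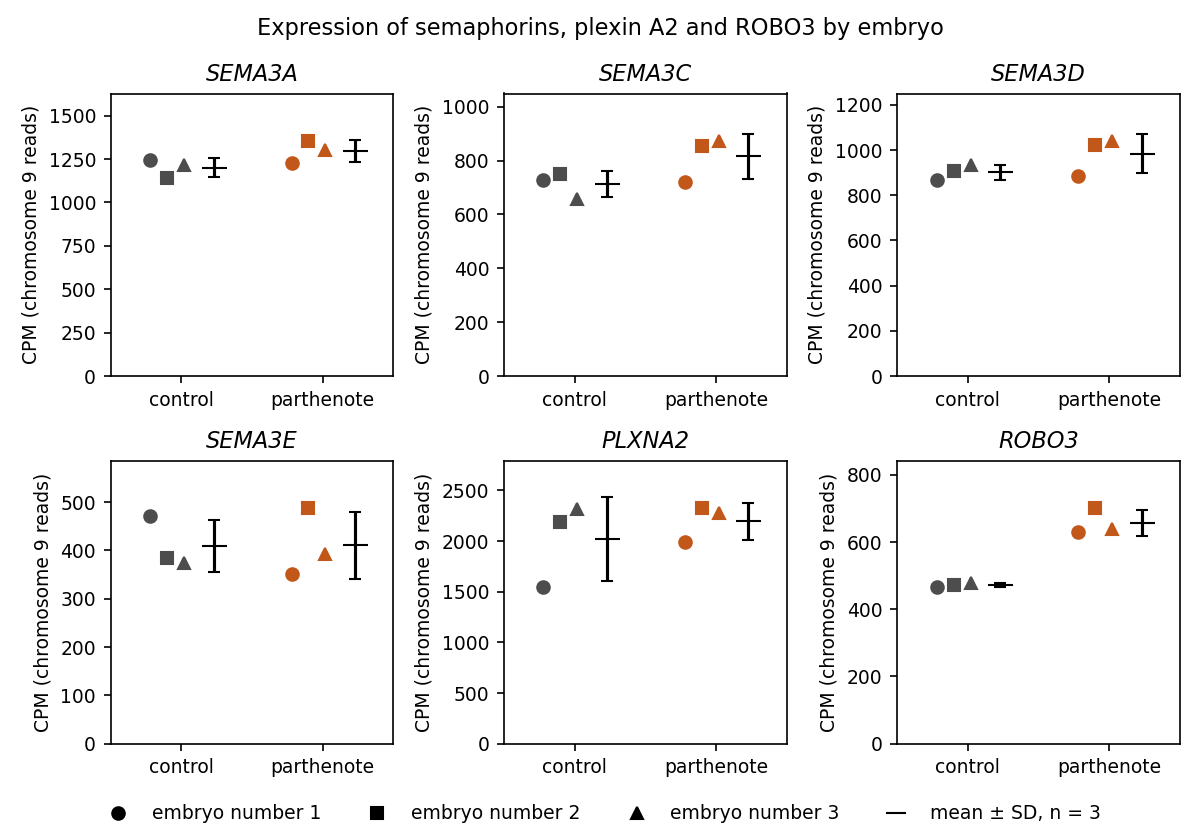
Level of each gene in each embryo, in CPM of the chromosome 9 reads on a linear axis that starts at 0 and differs in height between panels; grey symbols are controls, orange symbols parthenotes, the shape gives the embryo's number, and the bars give the mean ± SD of 3. The groups are separated for ROBO3 (466 to 477 against 631 to 701 CPM) and overlap for the other 5 genes.

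ROBO3 was the 1 of the 6 members that passed an adjusted p of 0.05 in edgeR's quasi-likelihood test, where 5.20% of the 807 tested genes passed, 1.61% as higher and 3.59% as lower in parthenotes. It was also the only member whose groups did not overlap, where 28.0% of the tested genes did not overlap, 13.8% with every parthenote above and 14.3% with every parthenote below the controls. Because the members were picked with this contrast known, these counts describe them and add no support. ROBO3 did not pass without control 2, control 3, parthenote 2 or parthenote 3, nor with library totals as the only scaling, while its log2 fold change stayed within 0.43 to 0.51 over all 13 alternatives.

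All 6 members had a log2 fold change above 0, as had 52.4% of the tested genes, and SEMA3E was above 0 by only 0.01. The median over the 6 was 0.12, and that over the 807 tested genes 0.02. Without control 1, PLXNA2 lay below 0. The 95% interval of ROBO3 overlapped the intervals of each of the other 5. A difference between ROBO3 and a semaphorin in how far they moved is therefore described below through reads within a library, with no test.

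Ratios of reads within a library need no scaling between libraries. Per 100 SEMA3A reads there were 37.5, 41.3 and 39.2 ROBO3 reads in control 1, 2 and 3. The parthenotes had 51.4, 51.7 and 49.0. Per 100 SEMA3D reads the numbers were 53.8, 52.0 and 51.2 ROBO3 reads in controls and 71.2, 68.5 and 61.2 in parthenotes. The parthenotes had more ROBO3 reads than every control in both ratios. ROBO3 was set apart here for its larger fold change, so these ratios largely restate that difference and add no support.

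Against SEMA3E the ROBO3 reads were also apart, at 117 ± 15.4 per 100 in controls and 162 ± 17.8 in parthenotes (SD, n = 3 each). Against SEMA3C the gap was narrow, with 72.6 in control 3 and 73.0 in parthenote 3. Against PLXNA2 the groups overlapped: control 1, where PLXNA2 was low, had 30.2 ROBO3 reads per 100 PLXNA2 reads, within the range of the parthenotes (28.0 to 31.7), while control 2 and 3 had 21.5 and 20.6.

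The reads of the 4 semaphorins kept close to the same proportions in both groups. SEMA3A took 37.2 ± 1.23% of their summed reads in controls and 37.0 ± 1.33% in parthenotes (SD, n = 3 each). SEMA3D took 28.0 ± 1.62% and 28.0 ± 0.703%, SEMA3C 22.1 ± 1.44% and 23.3 ± 0.825%, and SEMA3E 12.7 ± 1.35% and 11.7 ± 1.23%. In 0 of the 4 shares were the groups apart. The summed level of the 4 was 3225 ± 76.3 CPM in controls and 3507 ± 283 CPM in parthenotes, with parthenote 1 (3187 CPM) among the controls (3179 to 3313 CPM). PLXNA2 had 62.7 ± 14.1 reads per 100 semaphorin reads in controls and 62.6 ± 0.381 in parthenotes, with control 1 at 46.6 and control 2 and 3 at 68.9 and 72.7.

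Of the 6 embryos, parthenote 1 and 2 deviated from their group mean in 1 direction across all members, and the other embryos were mixed. Parthenote 1 was below its group mean in 6 of 6 members, by 0.06 to 0.21 on the log2 scale, and parthenote 2 above it in 6 of 6, by 0.06 to 0.26. Deviations within a group sum to 0, so these counts depend on each other. The share of all tested genes that deviated in the same way was not counted, so the pattern is no result particular to the members. Control 1 was mixed: PLXNA2 was 0.36 below the control mean and SEMA3E 0.21 above it. The spread within groups was largest for PLXNA2 in controls, with a coefficient of variation of 20.6% where counting alone gives 1.96%, and for SEMA3E, with 13.1% in controls and 16.9% in parthenotes where counting gives 4.35% and 4.16%. SEMA3A varied least among the semaphorins in parthenotes, at 4.96%, and SEMA3D in controls, at 3.62%. The most abundant gene of the chromosome took 20.8% of the reads in control 1 and 8.29% and 8.47% in control 2 and 3. It took 19.1%, 15.4% and 18.0% in parthenote 1, 2 and 3, where PLXNA2 was at 1987, 2325 and 2278 CPM. Its part in the PLXNA2 value of control 1 was not tested.

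**Figure D2:**
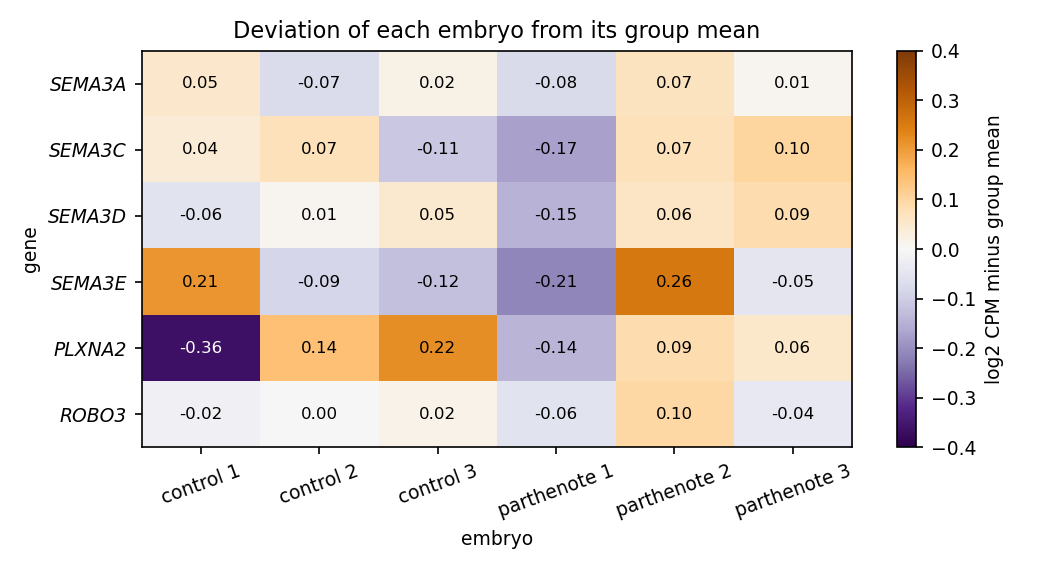
Difference between the log2 CPM of each embryo (columns) and the mean of its own group, for each gene (rows), with the value written in each cell and the colour running from -0.4 (purple) to 0.4 (orange). Parthenote 1 is low and parthenote 2 high in all 6 genes, and the largest deviation is that of PLXNA2 in control 1, at -0.36. Deviations within a group sum to 0, so they depend on each other.

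The nearest tested genes with a symbol and a RefSeq position beside the members did not pass the test, where 5.20% of the 807 tested genes passed. ROBO4, an endothelial member of the Roundabout family that starts 1992 bp past the end of ROBO3, at 52083757 to 52097784, averaged 350 ± 23.9 CPM over the controls and 386 ± 28.3 CPM over the parthenotes (SD, n = 3 each). Its log2 fold change was 0.14 ± 0.12 (SE), with an adjusted p of 0.515 by edgeR. MSANTD2, on the other side of ROBO3 at 51997144 to 52029532, had a log2 fold change of -0.04 ± 0.10. The groups overlapped in both of these genes.

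The tested genes with a symbol and a RefSeq position between SEMA3E and SEMA3C were CACNA2D1 and HGF. CACNA2D1 is a calcium channel subunit gene, and HGF encodes hepatocyte growth factor, itself an attractant of motor axons. Genes that were not tested or had no symbol are not covered. CACNA2D1 had a log2 fold change of -0.02 ± 0.08. HGF averaged 415 ± 30.3 CPM over the controls and 359 ± 24.2 CPM over the parthenotes. Its log2 fold change was -0.21 ± 0.11, with an adjusted p of 0.339 by edgeR and with every parthenote below every control. Beyond the ends of the semaphorin stretch, GRM3 had a log2 fold change of 0.38 ± 0.24 and GNAI1 one of 0.01 ± 0.11. Beside PLXNA2, CAMK1G had 0.22 ± 0.15 and CD34 had -0.03 ± 0.09.

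Other axon guidance genes were followed with a list of 138 genes, some of whose values were known from earlier results. Of these, 20 were in the table and 19 were tested; PAK1 had 16 reads in all and was not. The list's 26 other semaphorins, plexins and neuropilins and its 22 ephrins and Eph receptors were not analysed here, so the neuropilins that PLXNA2 pairs with are not described. Of the 19 tested genes, 2 rose and 0 fell in edgeR's quasi-likelihood test, where 1.61% of all tested genes rose and 3.59% fell. An unadjusted p under 0.05 was found in 9 of the 19, and in 175 of all 807 tested genes (21.7%). The log2 fold change was above 0 in 17 and below 0 in 2, where 52.4% of all tested genes were above 0. Its median was 0.28, against 0.02 over all tested genes. Every parthenote lay above every control in 10 of the 19, where 13.8% of all tested genes did so. Because the list was drawn up with some of these values known, the counts and the median describe its genes and add no support.

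The genes that rose were NRCAM and FEZ1. NRCAM, an adhesion molecule that is part of semaphorin receptor complexes on axons, had 516, 599 and 655 CPM in control 1, 2 and 3 and 800, 934 and 1027 CPM in parthenote 1, 2 and 3. Its log2 fold change was 0.64 ± 0.13 (SE), with an adjusted p of 0.0213 by edgeR. FEZ1, an adaptor of axonal transport, was at 1273, 1153 and 1147 CPM in the controls and at 1637, 1784 and 1596 CPM in the parthenotes. Its log2 fold change was 0.49 ± 0.09, with an adjusted p of 0.0126. NRCAM did not pass without control 2, parthenote 2 or parthenote 3 or with library totals as scaling (adjusted p 0.0710 to 0.0948), and FEZ1 not without control 2 or control 3 (0.0699 to 0.0761); over the 13 alternatives the adjusted p ran from 6.03e-04 to 0.0948 for NRCAM and from 1.73e-04 to 0.0761 for FEZ1.

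By role, 11 of the tested genes were axonal adhesion and matrix genes, of which 10 lay above 0. The most abundant of them, NCAM1, the neural cell adhesion molecule, averaged 5557 ± 667 CPM over the controls and 6996 ± 739 CPM over the parthenotes (SD, n = 3 each). Its log2 fold change was 0.33 ± 0.13, with an adjusted p of 0.170 by edgeR. CNTN2, the TAG-1 protein of commissural axons, had 1951, 2084 and 2201 CPM in control 1, 2 and 3 and 3131, 2471 and 2743 CPM in parthenote 1, 2 and 3. Its groups did not overlap, and its log2 fold change was 0.42 ± 0.11, with an adjusted p of 0.0649. RELN, which encodes the matrix protein reelin, lay below 0, at -0.22 ± 0.20. Of 6 guidance signalling genes, the most abundant was ARHGEF12, at 0.01 ± 0.13. The only tested gene of the netrin group was DSCAML1, at 0.09 ± 0.31, and that of the slit group was ROBO4.

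**Figure D3:**
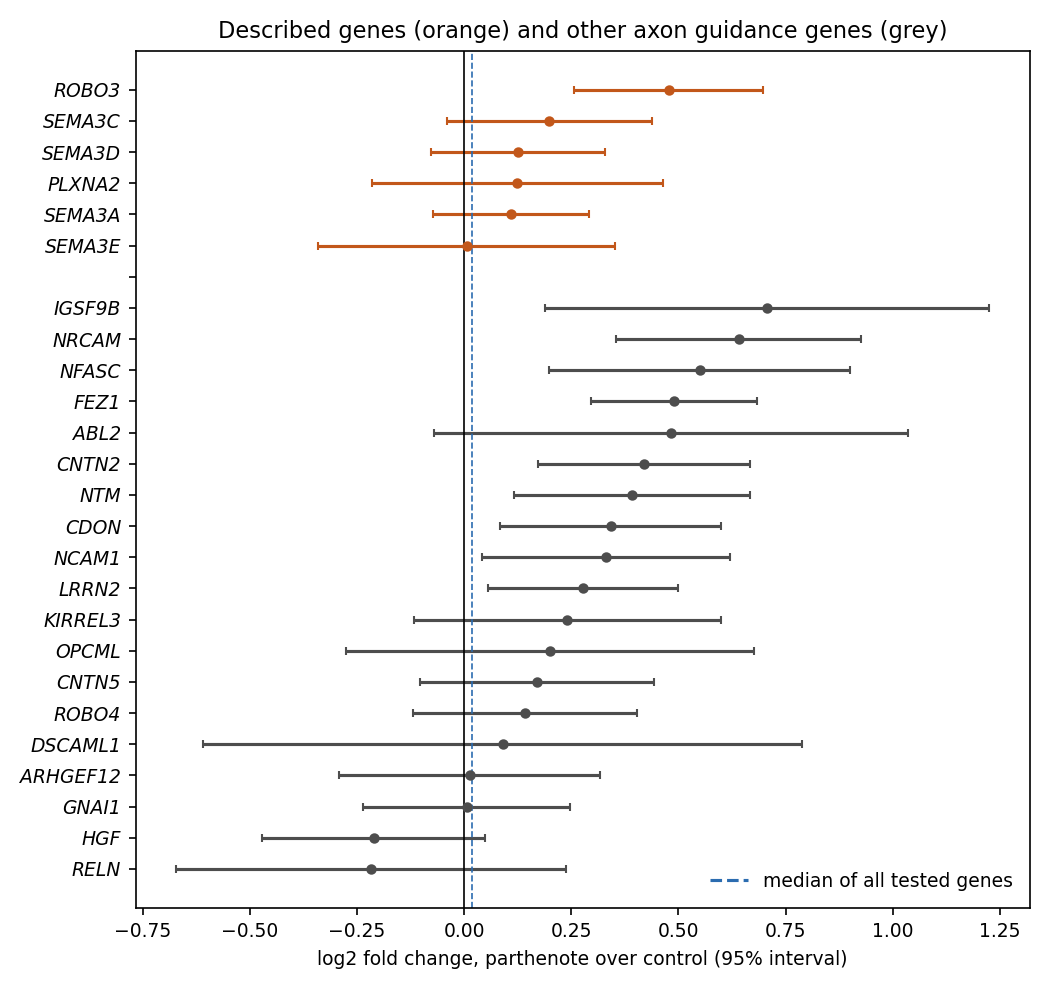
Log2 fold change of parthenotes over controls with its 95% interval, for the 6 described genes (orange) and the 19 other tested axon guidance genes (grey), each sorted by value; the solid line marks 0 and the dashed line the median of the 807 tested genes, 0.02. ROBO3 stands at 0.48 and the other described genes between 0.01 and 0.20. Above 0 lie 17 of the 19 grey points and 52.4% of all tested genes.

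A whole embryo is a mixture of tissues, so more cells of a type and more RNA per cell cannot be told apart in these values. Neuron markers were higher in parthenotes along with ROBO3. Of the 13 neuron markers in the list, 4 were measured (NCAM1, NRCAM, MAP6 and AMPH), and their summed level was 6211 to 7566 CPM in controls and 8452 to 10101 CPM in parthenotes. Of the 4, 3 rose in edgeR's test and NCAM1 did not pass, and the choice of markers was made with the values of NRCAM, MAP6 and AMPH known. NCAM1 and NRCAM are also among the axon guidance genes above, so the markers and that list are not separate observations. Markers of some other tissues differed between the groups as well. The kidney marker KCNJ1 fell in edgeR's test, with 541 to 594 CPM in the controls and 69.5 to 92.9 CPM in the parthenotes. The 2 tested trophoblast markers, PEG10 and PLET1, also fell. PEG10 is the paternally expressed gene named above, so tissue content and the lack of a paternal genome cannot be told apart in it. PLET1 was at a low level, with 12.9 ± 3.17 CPM in the controls and 1.92 ± 1.47 CPM in the parthenotes (SD, n = 3 each). Of the 3 liver and yolk sac markers APOC3 rose, by 1.08 on the log2 scale, and their sum was 29039 to 33808 CPM in the controls and 26128 to 51368 CPM in the parthenotes. HBB, the red cell marker, did not pass, at 873 to 2065 CPM in the controls and 102 to 575 CPM in the parthenotes, with every parthenote lower. Elsewhere, the mesenchyme marker COL1A2 ranged over 43436 to 46591 CPM in the controls and 40685 to 47881 CPM in the parthenotes. The 3 endothelial markers ROBO4, ESAM and ETS1 summed to 3437 to 3657 and 3321 to 3572 CPM, most of it from ETS1. Within this sum ESAM was at 422 to 461 CPM in the controls and 304 to 352 CPM in the parthenotes, with an adjusted p of 0.0677 by edgeR. The muscle marker MYOG had 1069 to 1133 and 1171 to 1262 CPM. HEPACAM, the only measured glial marker, had 13 reads over all libraries.

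Set against the neuron markers, ROBO3 did not separate the groups. Per 100 reads of the 4 markers there were 7.51, 6.23 and 6.45 ROBO3 reads in the controls numbered 1 to 3 and 7.46, 6.94 and 6.99 in the parthenotes, a measure chosen after the values were seen. The parthenotes lay within the range of the controls, but only control 1 overlapped them, and control 2 and 3 lay below every parthenote. NCAM1, the most abundant of the 4 markers, was lowest among the controls in control 1, at 4797 CPM against 6038 and 5838 CPM. Its part in this overlap was not tested. Per 100 CNTN2 reads the ROBO3 reads also overlapped, at 21.7 to 23.9 in controls and 20.2 to 28.4 in parthenotes.

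On the measure against the 4 markers, 3 of the semaphorins were lower in parthenotes. SEMA3A had 17.2 ± 2.56 reads per 100 neuron marker reads in controls and 14.1 ± 0.579 in parthenotes, SEMA3D 12.8 ± 1.02 and 10.7 ± 0.663, and SEMA3E 5.90 ± 1.46 and 4.44 ± 0.349 (SD, n = 3 each). In these 3 genes every parthenote was below every control, while SEMA3C, with 10.2 ± 1.45 and 8.86 ± 0.624, and PLXNA2, with 28.4 ± 3.26 and 23.8 ± 1.01, overlapped. NCAM1 supplied most of the marker reads, so these ratios follow mainly that gene. All 4 markers were higher in every parthenote than in every control. A gene with a log2 fold change near 0 therefore tends to come out lower on this measure. The share of all tested genes that do so was not counted, so the lower values are no result particular to the semaphorins. Against CNTN2 the groups overlapped for SEMA3A, at 54.7 to 63.8 reads per 100 in controls and 39.2 to 54.9 in parthenotes, as they did for SEMA3C, SEMA3E and PLXNA2, and SEMA3D alone was apart. What part neuron content, or that of the other tissues above, has in any of these values was not tested.

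**Figure D4:**
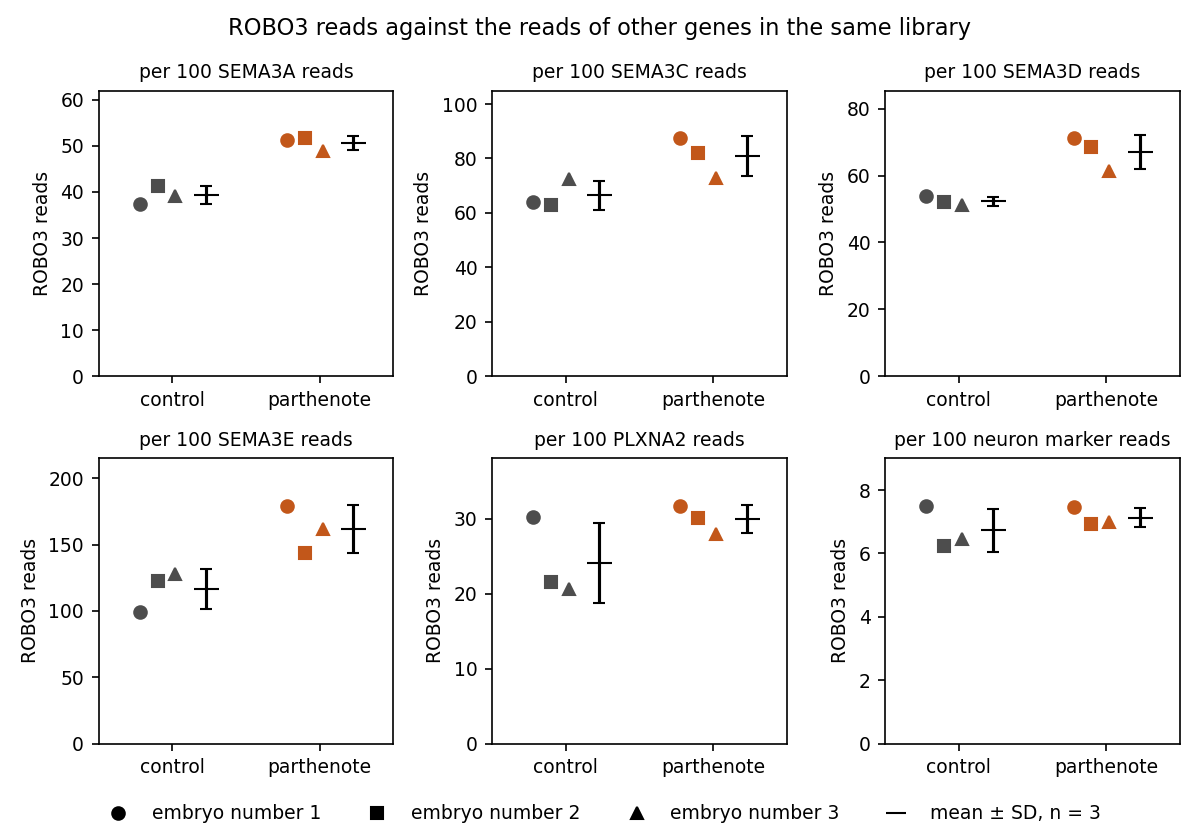
ROBO3 reads per 100 reads of each semaphorin, of PLXNA2 and of the 4 neuron markers together, counted within each library, on linear axes from 0 with symbols as in the plot of levels by embryo and bars giving the mean ± SD of 3. The groups are apart for the 4 semaphorins, narrowly so for SEMA3C (72.6 against 73.0), and overlap for PLXNA2 and for the neuron markers (6.23 to 7.51 against 6.94 to 7.46). Both overlaps come from control 1 alone, and control 2 and 3 lie below every parthenote there.

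The tested genes whose log2 CPM over the 6 libraries was most like that of ROBO3 were STX6, AMPH and MAP6, with Pearson's r of 0.993, 0.991 and 0.988. STX6 encodes a syntaxin of the trans-Golgi network, AMPH the synaptic protein amphiphysin and MAP6 a protein that stabilises microtubules in neurons. Over 2 groups of 3 such an r is set mainly by the difference between the groups, and it comes without a test. AMPH averaged 343 ± 3.22 CPM over the controls and 476 ± 14.6 CPM over the parthenotes (SD, n = 3 each), and its controls lay close together as they did for ROBO3. STX6 differed less, with a log2 fold change of 0.21 ± 0.07.

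Genes most like PLXNA2 included PHLDB1 and DNM3, with r of 0.990 and 0.980 over the same 6 libraries. Their log2 fold changes were 0.04 ± 0.10 and 0.07 ± 0.15, so this likeness lies in the spread within the groups. For the semaphorins the closest genes were VSTM2A for SEMA3A (0.961), DMTF1 for SEMA3C (0.924), RGSL1 for SEMA3D (0.957) and MPZL2 for SEMA3E (0.927). None of these nearest genes was another semaphorin.

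The normalized values in the authors' deposited files put the members in the same order of fold change. They are the same counts times 1 factor per library in most genes, so this order largely restates those counts and adds no support. The log2 ratio of their group means was 0.50 for ROBO3, 0.22 for SEMA3C, 0.15 for SEMA3D, 0.15 for PLXNA2, 0.13 for SEMA3A and 0.03 for SEMA3E.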

How the data were processed

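RNA of 6 whole embryos was made into TruSeq RNA v2 libraries, per the labels' protocols. HISAT2 2.1.0, SAMtools 1.9 and the Sscrofa11.1 build are named in the submitters' processing notes. Reads were counted with a tool and on an annotation not given in the sources used here. Raw read counts per gene are in a table deposited by the authors. Normalized signal values, deposited in a file for each embryo, equal those counts times 1 factor per library in most genes.

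The counts went into edgeR 4.0.16 (R 4.3.3) after filterByExpr (minimum count 10, minimum total 15; 807 genes) and TMM scaling. Parthenotes were compared with controls by its robust quasi-likelihood test, with p-values adjusted by Benjamini-Hochberg over these genes and a threshold of 0.05. SE and 95% intervals come from that fit. The code was tested on simulated data. Alternatives used DESeq2 1.42.0, limma-voom (limma 3.58.1), other scalings, no filter, the replicate number as a block, and each library left out.

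The members and lists were chosen with earlier results of these data known. Named were all members, the called axon guidance genes and the most abundant of each group of that list, the 3 genes most like each member (the first only for semaphorins) and the nearest tested neighbours; a few more were named after their values were seen, and some genes of the rule and of the marker lists are not reported here. Samples of the same number deviated together from their group means, with correlations of 0.365, 0.272 and 0.147 for numbers 1, 2 and 3. Of different numbers, control 3 with parthenote 2 was at 0.145 and control 2 with parthenote 3 at 0.0727. Pairs of different numbers that held control 1 or parthenote 1 were at -0.298 to -0.149. Deviations from a group mean sum to 0, so these correlations depend on each other. The labels give no pairing, so the main comparison is unpaired and the block is an alternative. No pair of libraries agreed within sampling noise. No protein or promoter sequence was used here.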

Additional observations from a re-analysis of the deposited data

How the results depend on the processing

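Of 13 alternatives, 8 left the count of members called at 1; it was 0 with library totals as scaling and 0 to 1 with a library left out. The median log2 fold change of the 6 members was 0.12 and ran from 0.086 to 0.19 with a library left out. The count of other axon guidance genes called (2 of 19) was 1 with library totals, 4 without a filter, 4 in DESeq2, and 0 to 3 with a library left out, with 0 without control 2, where 10 had an unadjusted p under 0.05, as had 133 of 815 genes (16.3%). Over all tested genes 42 were called, 68 in DESeq2 (where 63 had no adjusted p), and 17 to 55 with a library left out: 17 without control 2, 18 without control 3, 26 without parthenote 2 and 22 without parthenote 3. Why was not tested. The fit with a replicate block called 55 genes, which included 41 of the 42, with 1 member and 3 axon guidance genes; the log2 fold change of ROBO3 was 0.48 there, and ROBO3, NRCAM and FEZ1 still passed. The reads behind the normalized values were not used as an alternative count source: that alternative was not run. At 460 to 3385 reads per member and library, counting error was below the spread between embryos for each member but ROBO3 in controls.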
